A study of Arabidopsis thaliana with 10 samples.

Results

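The HD-ZIP III genes, class III of the homeodomain-leucine zipper family, of *Arabidopsis thaliana* comprise *PHABULOSA* (*PHB*, AT2G34710), *PHAVOLUTA* (*PHV*, AT1G30490), *CORONA* (*CNA*, AT1G52150), *REVOLUTA* (*REV*, AT5G60690) and *ATHB8* (AT4G32880). These 5 genes were taken by locus from a deposited table of 33851 genes. The rule used no measured value, but earlier results of these data were known when the genes were chosen. The table came from mRNA-Seq of shoot apical meristem (SAM)-enriched tissue, in which 5 genotypes were sampled at an age of 8 or 15 days, giving 10 libraries. The genotypes were the triple mutant *jba-1D/+ er-20 clv3-2*, the double mutant *jba-1D/+ er-20*, the single mutants *jba-1D/+* and *clv3-2*, and the wild type Col-0, all grown on MS plates under long days. The *clv3-2* allele impairs the stem cell signal CLAVATA3 and *er-20* impairs the receptor kinase ERECTA. The dominant *jba-1D* allele, carried here as a heterozygote by 6 of the 10 libraries, overexpresses the microRNA precursor gene *MIR166g*, whose product targets the HD-ZIP III transcripts. In genotypes with this allele the authors report lower transcript levels of *PHB*, *PHV* and *CNA*. Their main text does not name *REV* or *ATHB8*. Each library was a pool of meristem-enriched tissue that included leaf primordia, no condition was repeated, and *er-20* was present only together with *jba-1D/+*.

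What could be read from the table for each gene was its *k*-means cluster. The authors divided the genes into 1000 clusters by centered correlation, which groups genes whose levels varied in a similar way over the libraries whatever their height. A cluster number is therefore a label and holds neither the level of a gene nor the direction in which it changed. The 10 columns of values per sample carry headings that match no sample label, so they were not used. Levels, fold changes, tests between genotypes and the depth of each library were not analysed here, and the labelled tissue could not be checked against the levels of its markers. All 5 HD-ZIP III genes had a cluster, as did 25883 genes of the table in all.

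HD-ZIP III proteins are plant transcription factors that join a DNA-binding homeodomain to a leucine zipper, through which they pair, and to a START domain, a fold that binds lipids in animal proteins. They specify the upper, adaxial side of lateral organs, promote formation of the SAM, and pattern the vascular bundles, where *ATHB8* marks the procambium, the precursor tissue of xylem and phloem. The paper proposes that the HD-ZIP III pathway also limits lateral growth of the SAM, and it reports enlarged meristems in *jba-1D/+*. MicroRNAs of the miR165 and miR166 family, which are made on the lower, abaxial side, bind a site in the messenger and direct its cleavage by ARGONAUTE1. ARGONAUTE10 sequesters the same microRNAs, and the LITTLE ZIPPER (ZPR) proteins pair with HD-ZIP III proteins and inactivate them.

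The mature microRNAs and their sites in the 5 messengers are shown first, since pairing between them is what the *jba-1D* allele acts through. Sequences and positions were read from the RefSeq assembly TAIR10.1, and the authors aligned their reads to TAIR10. In the microRNAs the capitals mark the seed, bases 2 to 8 from the 5′ end. All 7 *MIR166* genes encode the same mature sequence, which for miR166g lies at chr5:25504882-25504902 on the forward strand, and the 2 *MIR165* genes encode a sequence that differs from it at 1 base, U17C, outside the seed.
miR166g: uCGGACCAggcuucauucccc
miR165b: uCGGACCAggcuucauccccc

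The site in each messenger is given 5′ to 3′ as DNA. Capitals mark the bases at which it departs from the full complement of miR166g, with G:U pairs counted as departures.
PHB site: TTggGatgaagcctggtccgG
PHV site: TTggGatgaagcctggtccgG
CNA site: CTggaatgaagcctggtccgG
REV site: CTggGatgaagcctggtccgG
ATHB8 site: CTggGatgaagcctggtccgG

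*PHB* and *PHV* had identical sites, as did *REV* and *ATHB8*, and the site of *CNA* differed from that of *REV* and *ATHB8* by 1 base and from that of *PHB* and *PHV* by 2 bases. The *CNA* site had 3 departures from the complement of miR166g, of which 1 was a G:U pair, and each of the other sites had 4, of which 2 were G:U pairs. This difference lay at position 5 of the site. There the departure A5G (the base of the full complement, the position from the 5′ end of the site, then the base of the site) was found in *PHB*, *PHV*, *REV* and *ATHB8* and not in *CNA*. It lies opposite base 17 of the microRNA, the one base at which miR165 and miR166 differ. Against miR165b the order was accordingly turned, with 4 departures in *CNA* and 3 in each of the other genes. The 2 first bases of the site were unpaired in all 5 genes (G1U in *PHB* and *PHV*, G1C in *CNA*, *REV* and *ATHB8*, and G2U throughout), and A21G gave a G:U pair with the first base of the microRNA in all of them. No departure fell opposite the seed in any of the 5 sites.

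The place of the site was as alike as its letters. In all 5 genes it lay in the coding sequence and was split by an intron, with 11 bases at the end of an exon and 10 at the start of the next. The exons were exons 4 and 5 in *PHB*, *PHV*, *CNA* and *REV*, and exons 5 and 6 in *ATHB8*, whose first exon holds no coding sequence. The site of *PHB* spanned chr2:14642530-14642666 on the reverse strand, with an intron of 116 bases inside, and began in codon 197. That of *PHV* spanned chr1:10799330-10799445 on the reverse strand, with an intron of 95 bases, and began in codon 193. That of *CNA* spanned chr1:19412976-19413085 on the reverse strand, with an intron of 89 bases, and began in codon 184. That of *REV* spanned chr5:24398787-24398898 on the forward strand, with an intron of 91 bases, and also began in codon 184. That of *ATHB8* spanned chr4:15866872-15866974 on the reverse strand, with an intron of 82 bases, and began in codon 183. The uninterrupted site thus exists in the spliced messenger and not in the genomic sequence. The first base of the site was base 2 of its codon in every gene, and when the 5 coding sequences were aligned the sites fell on the same columns.

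**Figure D1:**
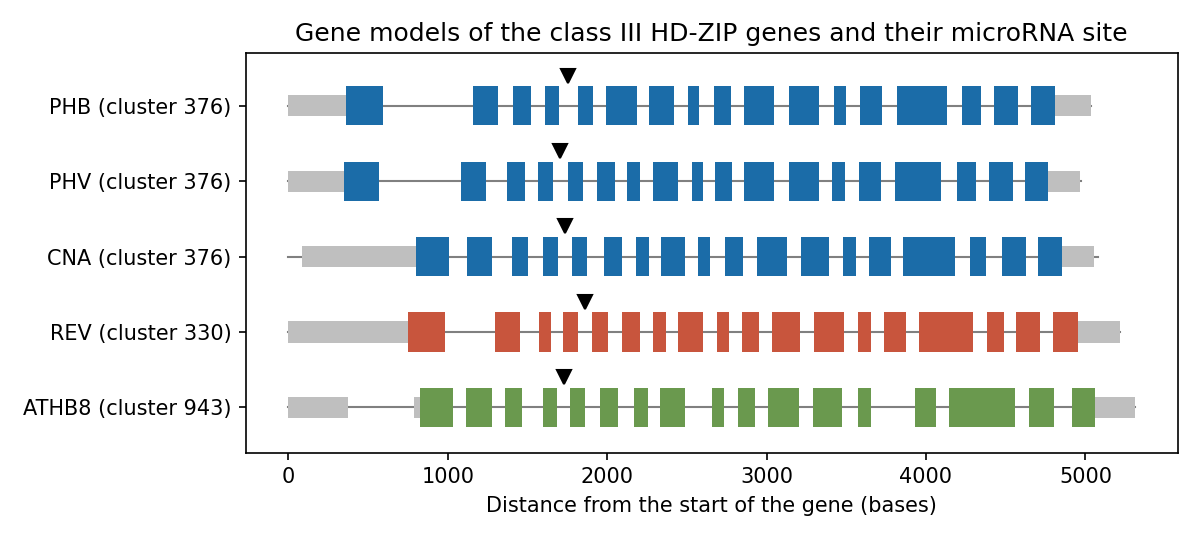
Gene models of the 5 HD-ZIP III genes, drawn to scale from the start of each gene in bases, with coding exons as tall boxes coloured by cluster, untranslated exon parts as low grey boxes and introns as lines. The triangle marks the microRNA site, which sits at the junction of exons 4 and 5, and of exons 5 and 6 in *ATHB8*.

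The whole genes were also built alike. The *PHB* gene (chr2:14639323-14644355, reverse strand) had 17 exons and coded for 852 residues, and the other 4 genes had 18 exons and coded for 841 (*PHV*, chr1:10796124-10801093, reverse strand), 837 (*CNA*, chr1:19409688-19414764, reverse strand), 842 (*REV*, chr5:24396981-24402195, forward strand) and 833 residues (*ATHB8*, chr4:15863339-15868650, reverse strand). They differed more in the 5′ untranslated region, which measured 349 bases in *PHV*, 362 in *PHB*, 411 in *ATHB8*, 717 in *CNA* and 753 in *REV*. *CNA* was annotated with 3 coding transcripts and each of the others with 1. The values for *CNA* are those of the transcript with the longest coding sequence, which starts 86 bases inside the gene.

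The same search was run over the annotated coding transcripts of 29113 genes of the table. At most 4 departures from the complement of miR166g were found in 11 genes, namely the 5 HD-ZIP III genes and 6 others, and *CNA* was the only gene with 3. Across all genes beside the HD-ZIP III genes the median of the best match was 9 departures of 21 bases. The 6 other genes were *SQP1* (AT5G24150, a squalene epoxidase), *HL* (AT5G54390, a phosphatase related to SAL1), AT1G76590, AT2G39415, AT4G22620 and AT5G49250. They were set apart from the HD-ZIP III genes by where the departures lay. Each of the 6 had at least 1 departure opposite the seed, whereas the 5 HD-ZIP III genes had 0. The longest stretch paired in all 5 HD-ZIP III sites ran from base 2 to base 16 of miR166g. This stretch was drawn from their own sites, so that they hold it is no finding. Of the 29113 genes scanned, 0 others held a transcript that pairs in full with these 15 bases, and the 6 other genes had 2 to 4 departures there.

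**Figure D2:**
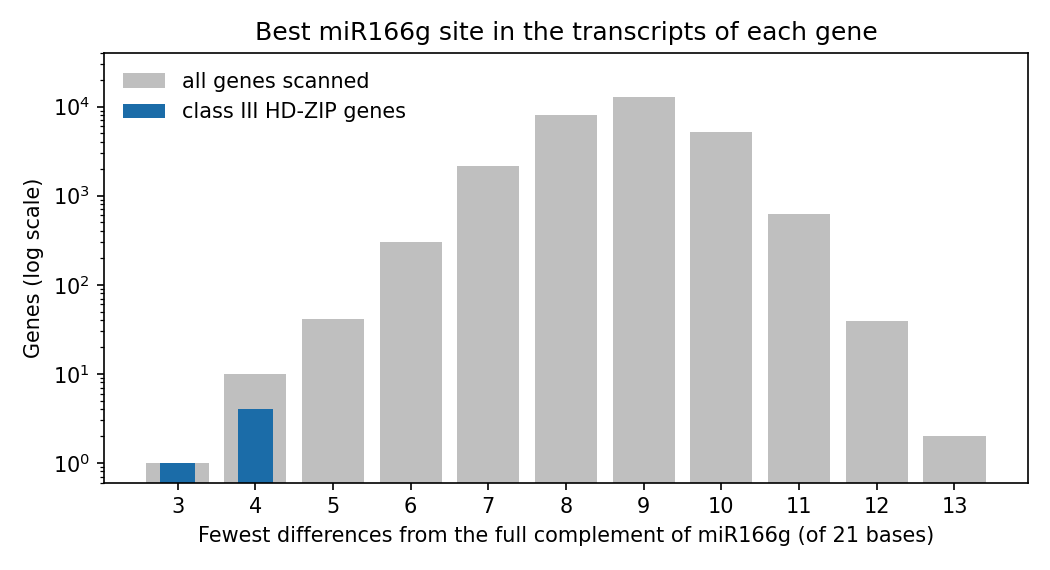
Number of genes (log scale) by the fewest departures from the full complement of miR166g over 21 bases in any of their transcripts, for 29113 genes (grey) with the HD-ZIP III genes in blue. *CNA* stands alone at 3, and the other 4 HD-ZIP III genes are among the 10 genes at 4.

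The site stood out within the coding sequences too. In the alignment of all 5 coding sequences, 47.8% of the 2388 columns without a gap held the same base in every gene. In the site, 19 of 21 bases were identical in all 5 genes. The median over 1985 windows of 21 columns was 11 identical bases. As many identical bases as in the site, or more, were found in 8 windows (0.403%), and all 8 were the site itself or overlapped it. The last base of a codon, which can often change without changing the protein, was identical in all 5 genes in 6 of the 7 codons whose last base the site covers (85.7%), against 111 of 796 over the aligned coding sequence (13.9%). The windows overlap and the genes share descent, so these shares are descriptions and were not tested.

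**Figure D3:**
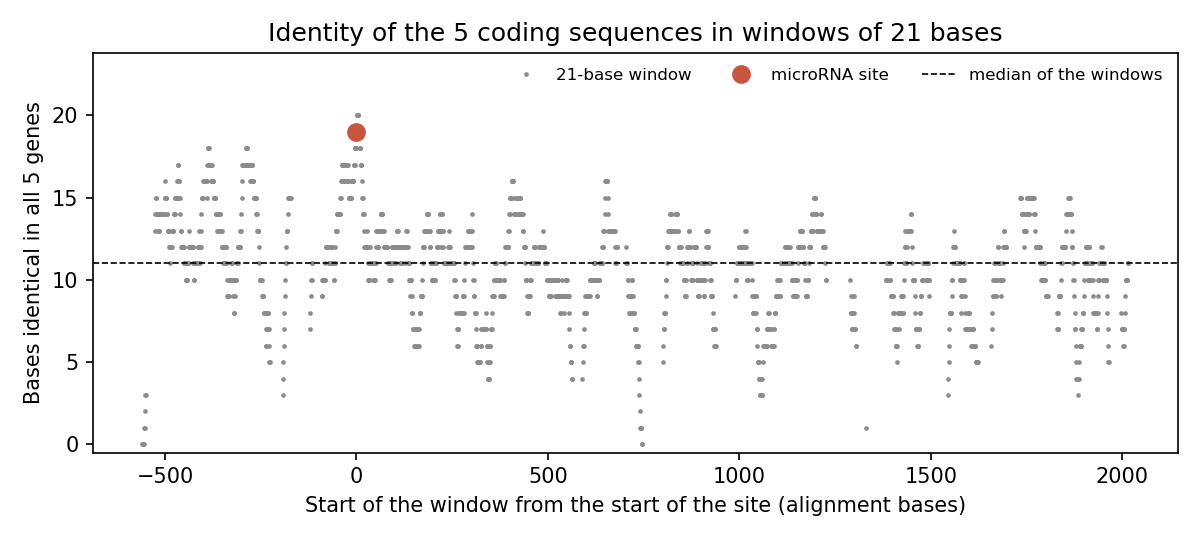
Bases identical in all 5 HD-ZIP III coding sequences (y axis, of 21) in each window without a gap, against the start of the window relative to the start of the microRNA site in alignment bases (x axis). The site, in red, has 19 identical bases, the dashed line marks the median of 11, and no window away from the site reaches 19.

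The deposited clusters put *PHB*, *PHV* and *CNA* together in cluster 376, and *REV* and *ATHB8* in clusters 330 and 943. The 5 genes form 10 pairs, and 3 of the pairs shared a cluster (30%). These 3 pairs all come from *PHB*, *PHV* and *CNA* in cluster 376, so they are not independent. Over all genes with a cluster, 0.226% of pairs shared one. Of the 10 pairs of the 5 listed flower genes, 4 shared a cluster (40%). Those pairs lay in much larger clusters, of 393 genes (*AP1*, *AP3* and *PI*) and 103 genes (*LFY* and *AG*), where shared membership is more common. By annotation, cluster 376 was 1 of 4 clusters, with 330, 53 and 445, that held 3 homeobox or homeodomain genes. In cluster 376 these were *PHB*, *PHV* and *CNA*. The HD-ZIP gene *PDF2* was also in it and was not counted, because its annotation field was empty. Clusters 376 and 330, with 41 and 45 genes, were larger than the median cluster of 19 genes, and cluster 943, with 15 genes, was smaller. The levels of the genes in these same libraries made the clusters, so the grouping describes these libraries and was not tested.

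Genes with like sites or proteins were not always in the same cluster. *CNA* shared its cluster with *PHB* and *PHV*, the genes whose site differed most from its own, and *REV* and *ATHB8*, with identical sites, were in different clusters. *PHB* and *PHV* were the most similar pair, with 86.8% identical residues and 83.8% identical coding bases, and were in the same cluster. *CNA* and *ATHB8* were next, with 77.2% identical residues, and were in different clusters. *CNA* had 65.9% and 65.2% of its aligned residues in common with *PHB* and *PHV*, its partners in cluster 376. *REV* was closer to both, with 68.5% and 69.4%, and lay outside that cluster. The other pairs ranged from 63.1% (*PHV* and *ATHB8*) to 66.4% (*CNA* and *REV*).

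**Figure D4:**
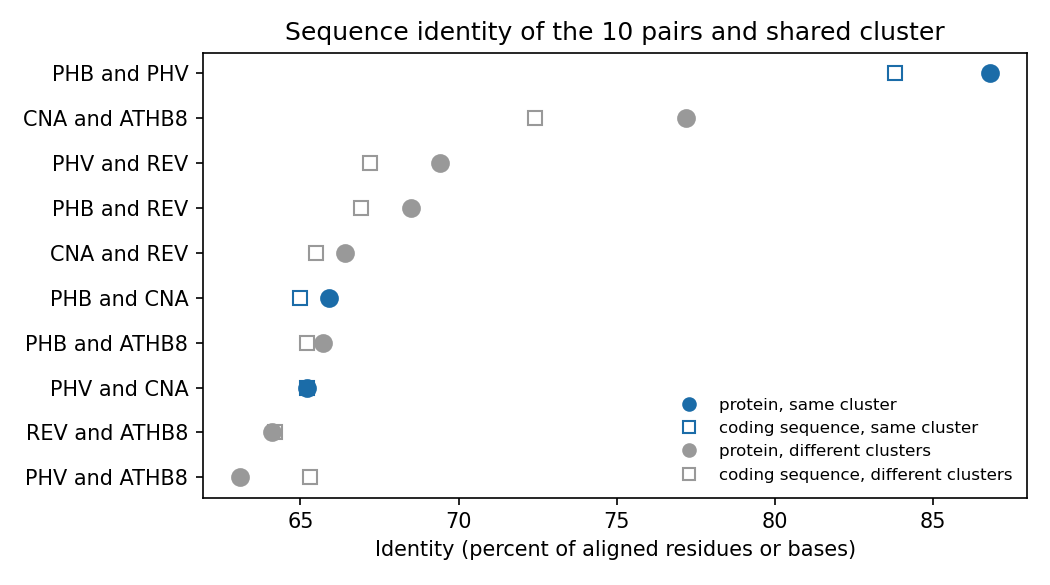
Identity of the 10 pairs of HD-ZIP III genes in percent of aligned residues (circles) or coding bases (squares), with pairs in the same cluster in blue and pairs in different clusters in grey. The pairs in one cluster lie at 86.8%, 65.9% and 65.2% protein identity, and the grey pair of *CNA* and *ATHB8* lies at 77.2%.

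Stretches of 51 bases, the read length of the libraries, were with few exceptions found in the transcripts of no other gene. Only exact matches in annotated coding transcripts were searched. Near matches and the rest of the genome were not covered. *PHB* shared 14 of its 3096 stretches of 51 bases with the transcripts of another gene (0.452%), all with *PHV*. *PHV* shared 47 of 3029 (1.55%), with *PHB* and with AT5G32670. *CNA* (of 3383) and *ATHB8* (of 3111) shared 0. *REV* shared 17 of 3494 (0.487%) with AT5G60700, a gene of cluster 601 that starts at 24402129 of chromosome 5 and overlaps the end of *REV*. The sources used here do not say whether the libraries were stranded. Whether reads from that overlap can be told apart between both genes is therefore not known. *PHB* and *CNA*, which were in the same cluster, shared no stretch of this length.

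Comparison with the other classes of the family asked whether shared clusters were common among HD-ZIP genes. The HD-ZIP family has 48 genes in the lists used, and the 17 genes of class I, the 10 of class II and the 16 of class IV were each in a cluster of their own within their class. Thus 0 of the 301 pairs within these classes shared a cluster, a share near the 0.226% of all pairs. Between classes 6 of 817 pairs did (0.734%). *PDF2*, a class IV gene that maintains epidermal identity of the shoot, was in cluster 376 with *PHB*, *PHV* and *CNA*. It was counted as a separate pair with each of these genes. *ATHB51*, a class I gene also known as *LATE MERISTEM IDENTITY1*, was in cluster 330 with *REV*. The remaining pairs were *ATHB13* with *HAT1*, and *ATHB52* with *HDG8*.

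The clusters of listed regulators and neighbours of the HD-ZIP III pathway are given as a description. Any of the 3 clusters held 0.371% of all other genes with a cluster, so counts of 0 in lists of this size are near the background. The 4 *ZPR* genes were in clusters 788 (*ZPR1* and *ZPR4*), 537 (*ZPR2*) and 192 (*ZPR3*). The *MIR165* and *MIR166* genes with a cluster, 7 of 9, were in 7 different ones, *MIR166g* in cluster 847. *AGO1* was in cluster 365 and *AGO10* in cluster 709. The adaxial genes *AS1* and *AS2* were in clusters 929 and 326. The 10 abaxial genes, of the *KANADI*, *YABBY* and *ARF* families, were in 10 clusters, and 0 of them were in a cluster of an HD-ZIP III gene. Of 12 procambium and xylem genes, among them *MP* (cluster 511), whose product activates *ATHB8*, 0 were in such a cluster. Of 13 targets of other microRNAs, 0 were. Over all lists, 2 of 116 other genes with a cluster (1.72%), *ATHB51* and *PDF2*, were in a cluster of an HD-ZIP III gene.

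The other genes of the 3 clusters are named here from their annotation, and were picked after the clusters had been seen. In cluster 376 the 38 genes beside *PHB*, *PHV* and *CNA* were all protein-coding. They included *AUX1*, which encodes an auxin influx carrier, the receptor-like kinase gene *HSL1*, *ABI2*, a protein phosphatase 2C that dampens abscisic acid signaling, *NINJA*, an adaptor of jasmonate repressors, *WER* (*MYB66*), a MYB factor that patterns the root epidermis, and the sorting nexin gene *SNX2a*. Annotated as transcription factors by key words were 1 of these 38 genes, and *PDF2* was missed by the key words because its annotation field was empty.

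Cluster 330 held 44 genes beside *REV*, and 9 of them were annotated as transcription factors, where 3.24% of all genes with a cluster were. They included *WOX5*, the homeobox gene of the root quiescent center, *ATHB51*, *ERF12*, *NAC050*, *MYB56* and *LRL3*. Among the other genes were *HAI1*, a protein phosphatase 2C of the same group as *ABI2*, the dehydrin gene *ERD10*, *DRB3*, which encodes a double-stranded RNA-binding protein, and *SAE2*, a subunit of the SUMO-activating enzyme. Cluster 943 held 14 genes beside *ATHB8*, with 2 annotated transcription factors, the Dof gene AT1G47655 and *MYR1*. It also held *CCS*, the copper chaperone of superoxide dismutase, the kinase genes *GRIK1* and *PERK8*, and a gene for a bromodomain protein, AT5G55040. All 41 genes of cluster 376 had a transcript that was scanned for the microRNA site, as did 44 of the 45 genes of cluster 330 and 13 of the 15 of cluster 943. Beside the HD-ZIP III genes, the fewest departures from the complement of miR166g among the scanned genes were 6 in cluster 376 and 7 in clusters 330 and 943, and the medians were 9, 9 and 8.

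Of 39 genes with a cluster within 20 kb of one of the 5 genes, 0 were in its cluster. The 3 clusters together held 0.371% of all other genes with a cluster, and each of them alone held less. A count of 0 is thus near the background and says nothing of position. *REV* and *MIR166g* are on the same chromosome arm, where the *MIR166g* precursor gene starts 1102603 bases beyond the last base of *REV*, and were in different clusters. Centered correlation parts genes whose levels vary in opposite directions. A microRNA gene and a target that it lowers would therefore be in different clusters in any case.

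The sequence before the start of the gene was compared because 3 of the genes shared a cluster. Windows of 250 bases before to 50 bases after the start were searched, and the longest run of bases shared on the gene strand was taken for each pair. *PHB* and *PHV* shared a run of 15 bases, in capitals below. Of 23560 protein-coding genes with a cluster, these 2 alone held the run in their windows. The run was picked because this pair shares it, so its absence from other windows is no finding. How often other pairs of genes share a run of this length was not measured. *PHB* and *PHV* also have the most similar proteins of the HD-ZIP III pairs, with 86.8% identical residues. Whether the run reflects shared descent was not tested. The 250 bases before the start of *PHB* (chr2:14644356-14644605) and of *PHV* (chr1:10801094-10801343) are printed on the gene strand.
PHB promoter: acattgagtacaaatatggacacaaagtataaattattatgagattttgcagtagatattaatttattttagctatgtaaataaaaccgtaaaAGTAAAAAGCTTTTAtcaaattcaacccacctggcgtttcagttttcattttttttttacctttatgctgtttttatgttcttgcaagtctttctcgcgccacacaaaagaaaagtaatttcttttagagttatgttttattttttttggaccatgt
PHV promoter: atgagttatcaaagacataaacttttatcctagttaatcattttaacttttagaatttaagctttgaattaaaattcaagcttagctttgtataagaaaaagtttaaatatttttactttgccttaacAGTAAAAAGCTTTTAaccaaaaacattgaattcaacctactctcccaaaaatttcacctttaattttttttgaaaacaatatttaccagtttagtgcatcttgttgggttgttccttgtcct

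The run began at -157 from the start of *PHB* and at -122 from that of *PHV*. *CNA*, of the same cluster, shared 11 bases with *PHB* and 9 with *PHV*, runs that were present in 132 and 880 of all windows. *REV* and *ATHB8*, of different clusters, shared 15 bases, a run made almost wholly of T and present in 39 windows. The remaining pairs shared 9 to 12 bases. The auxin response element TGTCTC, searched on both strands and present in 14.1% of all windows, was found in *ATHB8* at -67 from its start and in none of the other 4 windows. The G-box CACGTG (both strands, 8.31% of windows) and the E2F site TTTCCCGC (both strands, 0.819%) were in none of the 5, and TATAAA (gene strand, 36.7%) was in *PHB* and *ATHB8*. These are matches of letters in short windows and were not tested as binding sites. The windows were 26.7% (*PHV*) to 32.7% (*ATHB8*) GC, where the median of all windows was 32%.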

How the data were processed

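The authors trimmed single-end TruSeq-RNA reads of 51 nucleotides with Trimmomatic 0.32, used TopHat2 2.0.12 with Bowtie2 2.1.0 for the alignment to TAIR10, and took gene levels from Cuffdiff 2.2.1, per the submitters' processing notes. They clustered the genes by *k*-means with centered correlation. The deposited table held a cluster number for each gene, which was used, and 10 columns of values per sample, which were not used because their headings match no sample label. The tests of genotype and age planned on those values were not run. Depth per sample and counting error were not analysed here.

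The members and gene lists were chosen with earlier results of these data known. Of the 33851 genes, 31334 matched a locus of TAIR10.1 (RefSeq), which gave positions and sequences. For a list, the pairs whose genes had the same cluster number were counted, and so were all pairs of genes with a cluster. The rule for named genes in the plan rested on levels and could not be followed. The 5 HD-ZIP III genes were all named, and listed genes by the role of their list. Transcription factors were genes whose annotation held "transcription factor", "homeobox", "Dof zinc finger", "myb", "NAC domain" or "bHLH". Sites were the best ungapped matches to the complement of miR166g in 52177 coding transcripts, and a search on transcripts shuffled and given a planted site recovered 200 of 200. The coding transcript with the longest coding sequence stood for each HD-ZIP III gene. Proteins were aligned with MAFFT 7.526 and coding sequences by their codons. Calculations used Python 3.11.15, numpy 2.4.6 and pandas 2.3.3, and figures matplotlib 3.10.9. Alternatives chosen after seeing the data were to leave out clusters of over 100 genes, to use protein-coding genes only, to change the number of departures allowed in a site, and to search with miR165b.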

Additional observations from a re-analysis of the deposited data

How the results depend on the processing

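The 3 pairs of HD-ZIP III genes in one cluster stayed 3 when clusters of over 100 genes were left out and when protein-coding genes only were used. The share of all pairs of genes in one cluster moved from 0.226% to 0.146% and 0.187%. The number of genes with a site for miR166g depended on the limit, with 11 genes at 4 departures or fewer, 1 at 3 or fewer (*CNA*) and 52 at 5 or fewer. With miR165b in place of miR166g it was 7, the 5 HD-ZIP III genes included. The alternatives planned for levels (pseudocount, filter on low values, scaling, libraries left out in turn and an interaction with age) were not run. No paired analysis was possible because the value columns that a fit by genotype and age needs match no sample label and were not used. A cluster does not say by how much, or in which genotype, a gene changed. A gene of low level has a less certain cluster, which was not tested without levels.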
